A study of Drosophila melanogaster with 2 samples.

Results

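The regions described here are 2176 weak ChIP-seq candidates whose summits lie inside protein-coding exons, out of 21725 candidates in the pooled list. A candidate is an interval that a peak caller passed on before the irreproducible discovery rate (IDR) cut, which keeps peaks whose ranks repeat between replicates. A candidate was weak when it overlapped none of the 1696 peaks that passed the cut, called reproducible peaks below. The summit also had to lie more than 500 bp from every annotated transcription start site (TSS), outside 5′ UTRs and inside an annotated coding sequence. Of 19765 weak candidates, 13741 had summits outside promoters, and 2176 of those were in coding exons. Chromatin came from whole embryos of Drosophila melanogaster, both sexes pooled and 0 to 24 h old, of the strain luna-MiMIC-GFP, in which an inserted exon makes luna a fusion with eGFP. Chromatin sonicated to 200 to 800 bp was precipitated through the GFP, in 2 biological replicates of this 1 group. All embryos carried the tagged gene, so there is no untagged or treated group to compare, and a whole embryo mixes all its cell types and stages. The pooled list was called from both replicates together, and each replicate also has a list of 30000 candidates of its own.

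Luna is a DNA-binding zinc finger protein related to the Krüppel-like factors (KLF), which bind GC-rich and CACCC-type DNA sites, mostly at promoters and enhancers. Coding exons are constrained by the protein they encode and are richer in GC than introns in flies, where most known enhancers lie in introns or between genes. Candidate lists made for an IDR analysis are called with a loose threshold on purpose, so that they hold both signal and background.

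The sequences of 11 of the 12 strongest members are shown because they are the members nearest to the reproducible cut. Each run is the 29 bases centred on the summit, read 5′ to 3′ on the strand of the gene, from the RefSeq copy of Release 6 with dm6 coordinates. Capitals mark a match to 1 of 15 motifs searched on both strands.
scrib (+ strand, chr3R:26566982-26567010): aacagcagcCACACCCagtgcagcaacca
ATPsynbeta (+ strand, chr4:1034098-1034126): gcagaaaatcttgcaagactacaaatcac
siz (+ strand, chr3L:21048725-21048753): aatgagcagctacactgCCGCCCagtatt
CG31259 (+ strand, chr3R:8524465-8524493): ctgctatgagtatcaccatccgtggacaa
CG7102 (- strand, chr2L:7884718-7884746): acataggggaaaatgcaaatgagtgcgtt
scyl (+ strand, chr3L:11254186-11254214): agttcgaggatgagccgaagaattcgcgt
Scm (- strand, chr3R:9636842-9636870): cgcaaggcgtacagcaAGGGGGCGTGcac
ms(3)76Cc (+ strand, chr3L:19623715-19623743): cTATCGaacatcccaaaaactgttgctgt
RhoGAP102A (+ strand, chr4:258343-258371): gtcaaagtcgttatctaatgtgggccaat
Pdhb (+ strand, chr3R:29114509-29114537): aacttggctgaatgagatcaacgacatcc
Dpck (+ strand, chr3R:7082743-7082771): cacaagatcgtctgtgtaacctggtaggt
In scrib the capitals are the KLF core CACACCC, in siz they are the Sp-type GGGCGG on the other strand, in Scm they join the KLF core CACGCCC on the other strand with the CTCF-type AGNNGGCG, and in ms(3)76Cc they are the BEAF-32 element CGATA on the other strand. The other 7 runs hold none of the 15 motifs. A match is a description of the letters and not a binding site.

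The signal of a candidate is the score that the authors deposited with it, and it was used here only within a list. Members had pooled signals from 15.5 to 43.8, with a median of 18.5 and 25% of them at or below 16.7. The weakest reproducible peak stood at 46.4 and the strongest at 689, so the strongest member was just under the cut. Only 34 members exceeded 30 and 2 exceeded 40. The median of all weak candidates outside promoters was 19.2. Members ranked from 1893 to 21724 of the pooled list, with a median rank of 14219. The q values deposited with them had a median of 0.108 on the −log10 scale, and 18 members had a q below 0.05. These values follow from the rule, which takes members from below the cut. Every member was 376 bp wide with its summit in the middle, so the width is fixed and does not describe the extent of a region.

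The strongest member was in scrib, which encodes a scaffold protein of epithelial cell polarity, in the coding segment counted 6 of 25 at chr3R:26566808-26567183. Its pooled signal was 43.8, with 11.3 in replicate 1 and 31.3 in replicate 2. It stood at rank 10182 in replicate 1 and 1216 in replicate 2, so it was high in the ranks of replicate 2 alone. The next was in ATPsynbeta, the beta subunit of the mitochondrial ATP synthase, in the last of 3 coding segments at chr4:1033924-1034299. It had 40.8 in the pooled list, 17.2 in replicate 1 and 21.8 in replicate 2. The member in siz, a guanine nucleotide exchange factor for Arf proteins, had 39.1, 18.2 and 24.1 in the same order, and lay 513 bp from a TSS. Each of these 3 was in both replicate lists.

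Members of CG31259 and CG7102 followed with pooled signals of 38.2 and 37.2. The member in scyl, which encodes an inhibitor of the Tor pathway, had 37.1, 21.0 in replicate 1 and 17.8 in replicate 2. It lay 724 bp from the summit of a reproducible peak, the closest of the 12. The member in lola, a transcription factor of axon guidance with many isoforms, had 37.0, 23.0 in replicate 1 and 11.2 in replicate 2. Scm, a Polycomb group protein, held a member in the first of its 4 coding segments with 37.0, 12.5 and 21.7. The remaining 4 of the 12 were in ms(3)76Cc, in RhoGAP102A, in Pdhb, which encodes a subunit of pyruvate dehydrogenase, and in Dpck, a kinase of coenzyme A synthesis. Their pooled signals ran from 36.9 down to 35.6. All 12 were found in both replicate lists, although the matched summit of Pdhb in replicate 2 lay 154 bp away and nearer to another pooled candidate. The scores of separate lists are not on a shared scale.

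**Figure D1:**
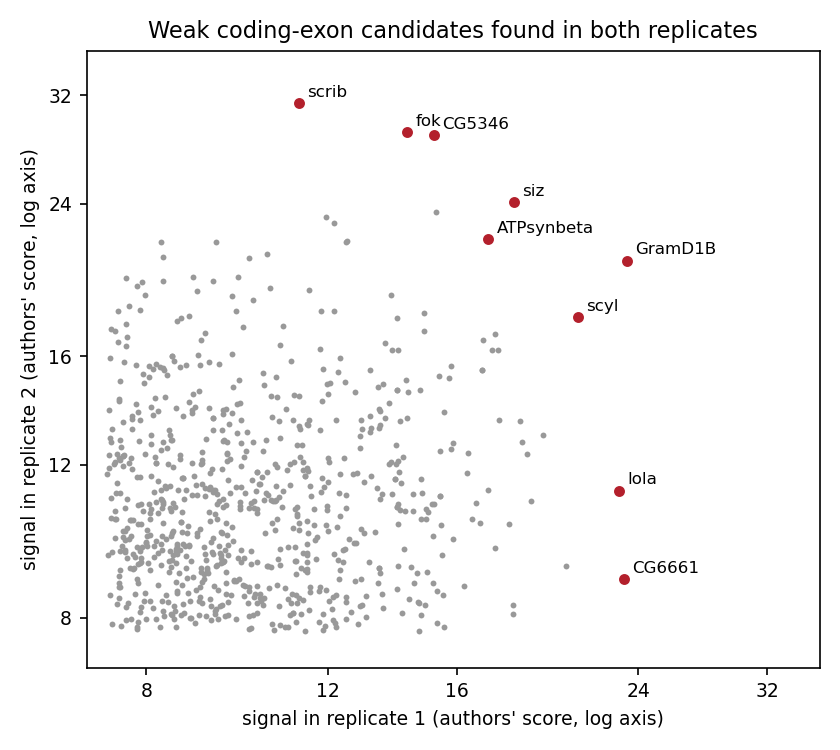
Each point is one of the 796 members found in both replicate lists, with the deposited signal in replicate 1 on the x axis and in replicate 2 on the y axis, both on log axes, and 9 named members in red. Only a few members, siz, ATPsynbeta and scyl among them, are high on both axes, while scrib and lola are high on 1 axis. GramD1B is also plotted high on both, but its matched summit in replicate 1 is nearer to another pooled candidate. The same holds for fok and CG5346 in replicate 2.

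A member counted as found in a replicate when a candidate summit of that replicate lay within 250 bp. By this measure 796 members, 36.6% (Wilson 95% interval 34.6 to 38.6), were in both replicate lists, 609 in replicate 1 alone, 678 in replicate 2 alone and 93, 4.27%, in neither. Weak candidates in introns, of which there were 7447, were in both lists in 45.8%. The difference was -9.24 percentage points (two-sided Fisher's exact test, adjusted p = 5.02e-14 over 6 tests). Weak candidates in 3′ UTRs, 755 regions, stood between them at 40%. These p-values refer to the deposited lists alone and carry no spread between embryos. Regions of 1 gene are not independent, and the intervals cover counting error only.

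Recovery moved with signal in both classes. In the lowest of 4 equal signal classes of weak candidates outside promoters, 14.7% of the members and 15.0% of the intron candidates were in both lists. In the next they were 26.2% and 28.8%, and in the one above 50.1% and 49.9%. In the highest they were 75.1% of 333 members (70.2 to 79.4) and 81.9% of intron candidates (80.2 to 83.5). This class spans signals of 22.9 to 46.4, and members lay toward its weaker end. The coding share of candidates outside promoters was 3.22% in pooled ranks 2001 to 4000 and 14.3% in 6001 to 8000. The intron share was 65.9% and 57.3% there, so the highest class does not compare both at like signal. Among weak candidates, members were also weaker. Of 2176 members, 914 exceeded the median of weak candidates outside promoters, against 3934 of 7447 in introns. The difference was -10.8 percentage points (two-sided Fisher's exact test, adjusted p = 3.80e-18). The rule cuts both classes by this same signal, and it left out 412 reproducible peaks in introns and 7 in coding exons. The test therefore describes only the signals left below the cut, and not the signals of each class as a whole. Within the 3 lower signal classes the shares of members and introns differed by under 3 points, and no test was run within a class. Of the 100 strongest members 88 were in both replicate lists, and of the 100 weakest 11 were.

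**Figure D2:**
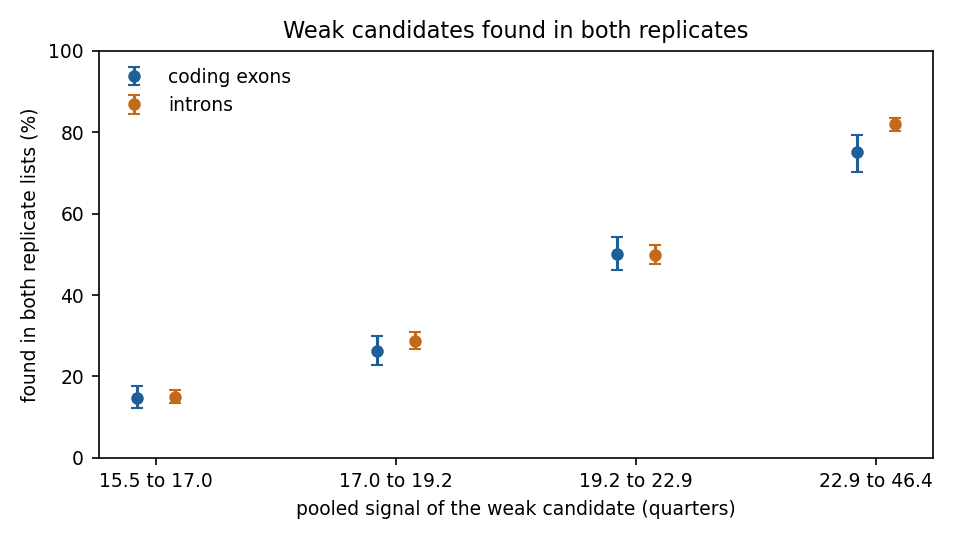
The y axis gives the percentage of weak candidates found in both replicate lists and the x axis 4 classes of pooled signal, with points for coding exons and introns and Wilson 95% intervals as bars. Shares rise from 14.7% to 75.1% in coding exons and from 15.0% to 81.9% in introns. The intervals overlap in all but the highest class, a wide one in which coding-exon candidates lie toward the weaker end.

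Among the 796 members in both lists, the signals of both replicates had a Spearman's rho of 0.03 and a Pearson's r of 0.08 on the log10 scale across members. The same rho across 3412 intron candidates was 0.22. These regions share the libraries and the pooled cut, which holds the combined signal in a narrow range, so the values are descriptions without a test. In replicate 1, members had signals from 7.32 to 23.4 with a median of 10.4, and in replicate 2 from 7.71 to 31.3 with a median of 11.2. Outside promoters the strongest weak candidate had a pooled signal of 46.36 and the weakest reproducible peak had 46.39. The rule thus bounds the pooled signal of members from above, so regions high in both lists were largely excluded beforehand. Among the strongest 1696, 0 members were in both replicates, 4 in replicate 1 and 3 in replicate 2. Those of replicate 1 were in GramD1B at rank 1468, CG6661 at 1491, CG17258 at 1517 and lola at 1525. CG6661 stood at rank 23125 in replicate 2, and CG17258 had no candidate there.

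The 3 of replicate 2 were in scrib at rank 1216, fok at 1469 and CG5346 at 1495. Matching by distance can give a member the candidate of its neighbour. The matched summit in fok lay 247 bp away, and that in CG5346 lay 210 bp away with a stronger pooled candidate, rank 1990, only 204 bp from the member. The same held in GramD1B in replicate 1, where a stronger pooled candidate, rank 2757, lay 216 bp from the member. When each replicate candidate counted only for its nearest pooled summit, 3 members in replicate 1 and 1 in replicate 2 remained among the strongest 1696. In all, 136 members (6.25%) lay less than their width from another pooled candidate, and for 72 of them that candidate was stronger.

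Over the whole pooled list, members were about as frequent as the length of coding sequence would give. This match depends on how many candidates enter, since the coding share rose along the ranks, as given below. Coding exons made up 15.8% of weak candidates outside promoters (15.2 to 16.5) and 15.9% of the bases outside promoters, 18.4 Mb. There were 118 members per Mb of coding exon, against 141 weak candidates per Mb of intron, a ratio of 0.84, 127 in 3′ UTRs and 80.4 between genes. Reproducible peaks were different, since 7 of 574 outside promoters, 1.22%, had summits in coding exons. That is 0.381 per Mb, against 7.80 per Mb of intron. These 7 were in otp, a homeodomain factor, with a signal of 187, l(3)mbn with 98.1, Pde1c, a cyclic nucleotide phosphodiesterase, with 95.5, fus, an RNA-binding protein, with 83.7, klar with 56.0, Glut4EF with 49.1 and Mf, a muscle protein, with 48.7. Mf and Glut4EF are the coding-exon peaks just inside the cut, as scrib and ATPsynbeta are just outside.

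The coding share rose along the ranks. Among candidates outside promoters it was 1.15% in pooled ranks 1 to 2000, 3.22% in 2001 to 4000, 9.81% in 4001 to 6000 and 14.3% in 6001 to 8000. From there it rose more slowly to 19.1% in the last ranks, 20001 to 21725. The intron share moved the other way, from 72.2% to 49.8%. The replicate lists, which the rule did not use, gave 2.06% and 8.42% in the first 4000 ranks of replicate 1, and 1.05% and 5.61% in those of replicate 2. Both lists were above 16% from rank 8001 on. The lists come from the same libraries as the pooled list, so they are not independent of it.

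**Figure D3:**
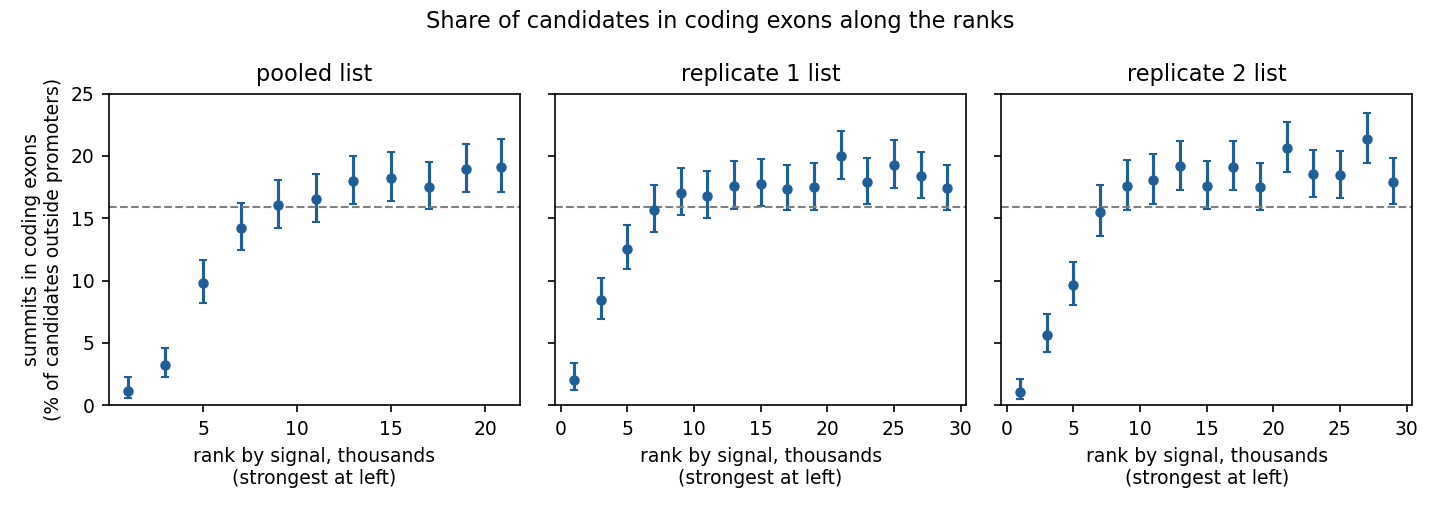
The y axis gives the percentage of candidates outside promoters with a summit in a coding exon, and the x axis the rank by signal divided by 1000, for the pooled list and each replicate list, with Wilson 95% intervals. In all 3 lists the share climbs from under 2.1% to above the dashed line, which marks the 15.9% of bases that are coding.

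Members thinned out with distance from start sites. Their median distance to a TSS was 1513 bp, against 1891 bp for all eligible coding bases. There were 164 members per Mb (exact Poisson 95% interval 148 to 182) at 501 to 750 bp, 150 at 751 to 1000 bp, 124 at 1001 to 2000 bp, 106 at 2001 to 5000 bp and 80.4 (71.1 to 90.6) beyond. Weak candidates in introns thinned out too, from 262 per Mb in the nearest class to 97.5 in the farthest. The median signal of the members was 18.9 in the nearest class and 17.9 in the farthest. On either side of the 500 bp limit, 177 coding summits 401 to 500 bp from a TSS had a median signal of 19.1 with 40.1% in both replicates, and 170 members at 501 to 600 bp had 19.6 with 50%. Only 75 members, 3.45%, lay within 1000 bp of the summit of a reproducible peak, close to the 3.29% of intron candidates. The median distance to one was 13706 bp for members and 23249 bp for intron candidates.

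Members were placed in shorter exons than the coding sequence at large. Of the 2176, 738 were in coding segments over 1000 bp, 33.9% (31.96 to 35.9), against 41.9% of eligible coding bases (two-sided exact binomial test, adjusted p = 7.05e-14). The lower share was present in each of the 5 classes of distance to a TSS, from 23.9% of members against 26.8% of bases at 501 to 750 bp to 36.8% against 49.0% beyond 5000 bp. The median segment was 713 bp long for members and 823 bp for bases. Along the coding sequence, 53.7% of the 2112 members that could be placed were in its 3′ 50% (51.6 to 55.8), against 56.9% of bases (two-sided exact binomial test, adjusted p = 0.0028). With the strongest member of each gene alone this difference missed the threshold of the exact binomial test (adjusted p = 0.0554), as it did in each replicate list (0.0883 and 0.164). The first 20% of the coding sequence held 17.05% of members and 12.5% of bases, and the last 20% held 23.7% and 22.5%.

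The X held 275 members, 12.6% (11.3 to 14.1), against 17.8% of eligible coding bases (two-sided exact binomial test, adjusted p = 8.99e-11). That is 84.1 members per Mb (74.4 to 94.6), while 2L, 2R, 3L and 3R had 125, 124, 126 and 122, which do not differ beyond their intervals. Introns of the X had 123 weak candidates per Mb, below the 135 to 160 of those 4 arms, and the ratio of coding to intron density on the X was 0.687. Embryos of both sexes carry fewer copies of the X than of the autosomes. The part of copy number, or of the control file used in calling, in the densities of the X and of chromosome 4 was not tested.

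Chromosome 4, a small chromosome rich in repeats, went the other way. It held 59 members, 233 per Mb (178 to 301), against 104 weak candidates per Mb of intron, a ratio of 2.23. It was the 1 arm of 6 where coding exons held more weak candidates per Mb than introns. In the replicate lists coding exons of this chromosome had 296 and 332 weak candidates per Mb, against 198 and 192 over all coding exons of replicates 1 and 2. Of the named genes, 4 lie here: ATPsynbeta and RhoGAP102A from the 12 strongest, CG33978 with 4 members and zfh2, a zinc finger homeodomain factor, with 4. No test of chromosome 4 was run, since it was singled out after its values were seen.

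**Figure D4:**
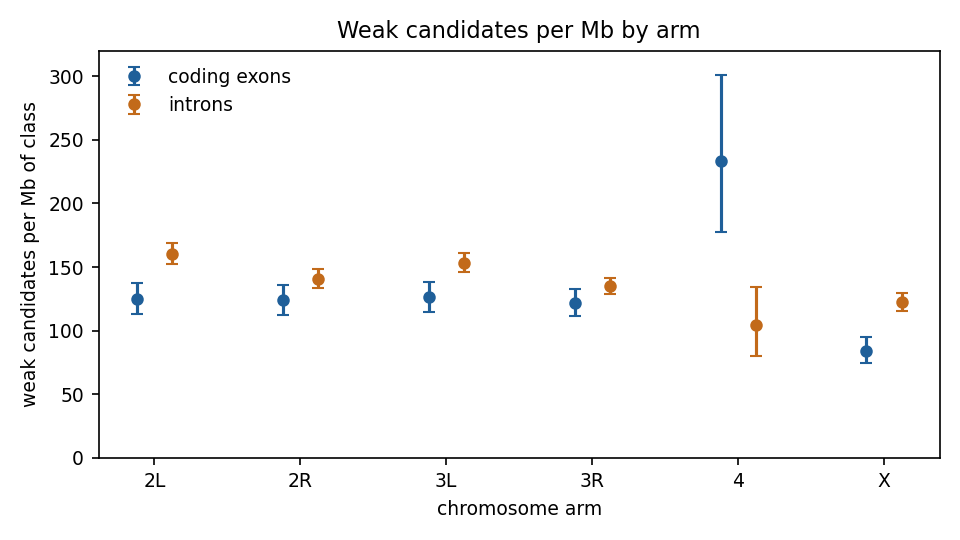
The y axis gives weak candidates per Mb of coding exon and of intron outside promoters, and the x axis the 6 chromosome arms, with exact Poisson 95% intervals as bars. Coding exons are below introns on 5 arms, and above them on chromosome 4, at 233 against 104.

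The 2176 members fell in 1870 protein-coding genes, 15.3% of the 12260 with eligible coding sequence. This percentage is the background for each gene list below. It depends on how many candidates enter, and was 23.0% and 23.5% in single replicate lists and 6.97% in the stronger 50% of weak candidates. Genes holding a member had a median of 1.74 kb of eligible coding sequence, against 0.913 kb in the others. Of the 1870, 1621 held 1 member, 206 held 2, 32 held 3, 8 held 4, 2 held 5 and 1 held 7. The gene with 7 was Msp300, a giant protein that anchors nuclei in muscle. It has 63.0 kb of eligible coding sequence, so its 111 members per Mb were close to the 118 of all coding exons. Its signals ran from 16.02 to 18.9, and 0 of the 7 were in both replicates. With 5 each came lola and shot, a spectraplakin that links actin and microtubules, of which 3 and 2 were in both.

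The highest densities among the genes named for their counts were in those with the least eligible coding sequence. The 4 members of bun, a factor of the TSC22 family, lay in 4.797 kb, or 834 per Mb, with signals of 16.9 to 32.6, and all 4 were in both replicate lists. A pair of them had overlapping intervals and shared 1 candidate of replicate 1. The 4 of mask, an ankyrin-repeat cofactor of Yorkie, had signals of 16.4 to 24.6 and 3 were in both. The 4 of side-II, an immunoglobulin-family surface protein, lay in 3.20 kb, or 1249.6 per Mb, the highest density of the 8 genes named for their counts, and 0 of them were in both. These genes were chosen for their counts, so the counts are descriptions.

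The runs around the summits in bun and mask are shown because they let several members of 1 gene be compared, and that of RpL27 because ribosomal proteins are the densest of the 16 gene lists described next. They are again 29 bases from RefSeq Release 6, on the strand of the gene.
bun (- strand, chr2L:12457788-12457816): ggtgacatcagcagcggCAGCAGCAGcat
bun (- strand, chr2L:12460606-12460634): gaagggctacgacagcccctgctatgtga
bun (- strand, chr2L:12516540-12516568): aatgtgccagcgtttttgccgccgttgcg
bun (- strand, chr2L:12516741-12516769): gtgcattcagtgccagtccctcgatttat
mask (+ strand, chr3R:24243856-24243884): gaagatcctgcgtagcgccaaagaggccc
mask (+ strand, chr3R:24236121-24236149): caacaacaagcgttccagcaatatctccg
mask (+ strand, chr3R:24242887-24242915): gggattcacaccgcttatactagccgcta
mask (+ strand, chr3R:24232138-24232166): gcCACGCCCacaCCGCCCacggccagcag
RpL27 (- strand, chr3R:25684150-25684178): caccgcttccagacccgcgtcaagttcga
In bun the capitals mark CAGCAGCAG in 1 of the 4 runs, and the other 3 hold none of the 15 motifs. In mask 1 of the 4 holds the KLF core CACGCCC beside a Sp-type match, and that member had a signal of 16.4. Within these 29-base runs, the members of bun shared none of the 15 motifs with each other, and neither did those of mask. Wider windows were not compared within a gene.

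Gene lists were described by their counts, without a test. Among the 16 lists shown in the plot of gene lists, cytoplasmic ribosomal proteins stood highest: 7 of 54 genes with eligible coding sequence (13.0%) held 7 members in 15.1 kb, or 463 per Mb (186 to 954). At the average density for the same distances from a TSS, 2.31 members would have fallen there. The strongest was in RpL19, with 29.2 in the pooled list, 8.24 in replicate 1 and 15.6 in replicate 2. It lay 788 bp from the summit of a reproducible peak. RpL27 followed with 21.4. These genes have little eligible coding sequence, and how reads with several matches in the genome were treated is not given in the sources used here.

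Polycomb and Trithorax group genes, which keep gene states through cell divisions, held members in 12 of 29 genes (41.4%), but these are long genes, and 137 per Mb (79.8 to 219) included the average. Scm and Su(z)12, a subunit of the repressive complex that methylates histone H3, held the strongest, at 37.0 and 27.2. Genes of the transcription and chromatin machinery had 10 of 24 (41.7%) and 134 per Mb. The strongest were in dom, a chromatin remodeller, at 26.2 and Polr2A, the largest subunit of RNA polymerase II, at 22.1. Neural progenitor and neuronal genes had 8 of 30 (26.7%) and 124 per Mb. Cuticle proteins had 7 of 99 (7.07%) and 151 per Mb, a pattern that also takes in Acp76A, which is no cuticle gene.

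Signalling lists had densities below the average, with intervals that all included it, while their shares of genes were above the 15.3% background. The Hippo pathway had 6 of 15 genes (40%) and 108 members per Mb, with hpo, its kinase, at 28.1 and sd, the DNA-binding partner of Yorkie, at 24.3. The Wnt, Dpp and Hedgehog pathways had 9 of 36 (25%) and 97.3 per Mb, led by Apc and Axn, scaffolds of the complex that degrades beta-catenin, at 21.3 and 20.3. The Notch and EGF receptor pathways had 5 of 25 (20%) and 85.6 per Mb, with the ligand gene spi at 21.7. Homeotic and segmentation factors had 5 of 33 (15.15%) and 111 per Mb, with slp2 at 20.5 and hth at 18.5, and 0 of their 5 members were in both replicates. The sarcomere list had 9 of 27 genes (33.3%), 21 members and 85.3 per Mb. At the average density for their distances from a TSS, these lists would in this order have held 5.80, 10.5, 6.01, 5.30 and 22.5 members. They held 6, 9, 5, 5 and 21.

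The intervals of 4 lists lay wholly below the average of 118 per Mb. Cadherins and adhesion genes had 44.7 (19.3 to 88.1) with 8 members in 6 of 27 genes (22.2%), led by shg, the E-cadherin, at 28.7. Basement membrane and matrix genes had 43.2 (17.4 to 88.9) with 7 members in 6 of 15 genes (40%), led by Col4a1, a collagen chain, at 23.9. Chemoreceptors, which serve mainly in sensory neurons, had 54.1 (24.7 to 103) with 9 members in 9 of 176 genes (5.11%). Mucin-type genes had 21.4 (2.59 to 77.3), with 2 members that were both in Muc68Ca, 1 of 13 genes. The share of genes was thus above the 15.3% background in the first pair of lists and below it in the others, while all 4 densities were below the average. At the average density for their distances from a TSS, these 4 lists would have held 16.4, 14.8, 23.5 and 9.38 members. Genes of the KLF and Sp family held 1 member in 11 genes (9.09% with a member), in CG42741 at 16.5. Heat shock and chaperone genes held 1 in 27 (3.70%), in CCT6 at 20.02.

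**Figure D5:**
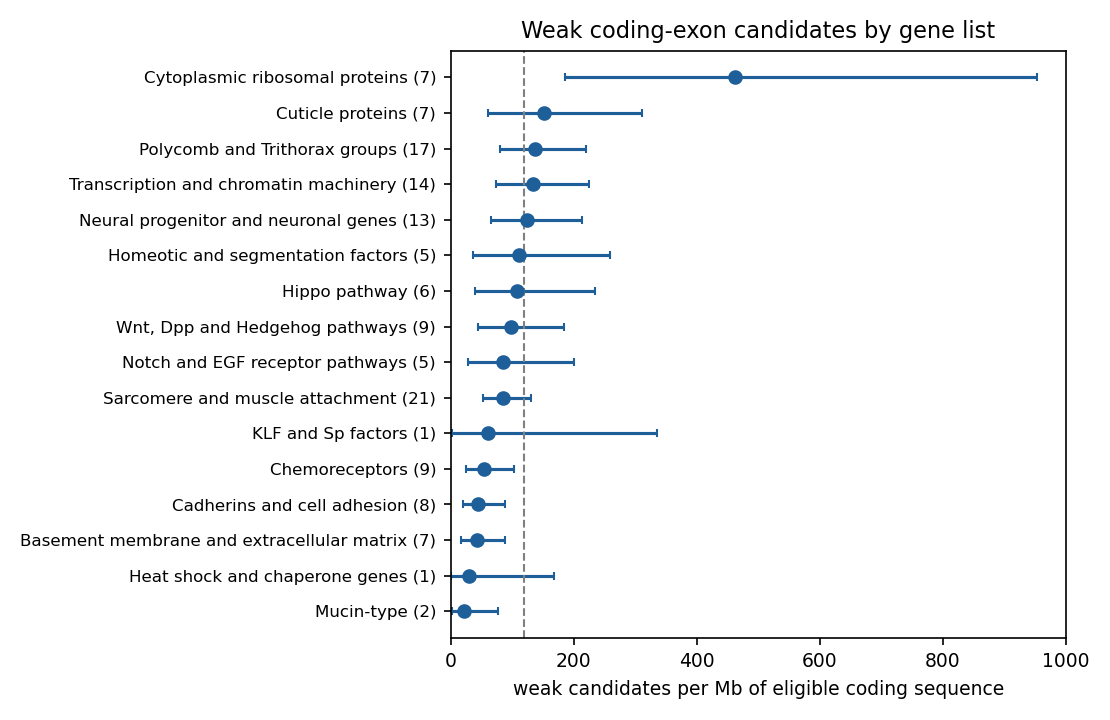
The x axis gives members per Mb of eligible coding sequence in each of 16 gene lists, with exact Poisson 95% intervals as bars and the number of members in brackets. The dashed line marks the average of 118, and ribosomal proteins at 463 lie furthest to its right.

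Mean GC content in the window reaching 100 bp to each side of the summit was 53.5% ± 7.57 (SD, n = 2176 regions), against 53.4% for all eligible coding bases and 40.7% for weak intron summits. For 447 members both this window and a window centred 1000 bp to the right lay wholly in coding sequence. There GC was 54.6% ± 6.72 at the summit and 53.3% ± 6.60 beside it, a shift much smaller than the spread between regions. The summit was the higher in 246 of 426 unequal pairs (two-sided exact sign test, adjusted p = 0.00193). In the stronger 50% of candidates the pairs were fewer, and the difference missed the threshold of the exact sign test (adjusted p = 0.0614). Repeats were rare, since 68.1% of members had no soft-masked base in the window, against 19.2% of intron summits.

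Of 15 motifs, 0 passed the test between the summit and the window beside it (0%, exact McNemar test with Benjamini-Hochberg adjustment), and 0 had an unadjusted p under 0.05. For some of them no other outcome was possible after adjustment, since Dref and M1BP sites were in 0 windows and the CA repeat in 2. TAATTA, the homeodomain core, was in only 5 summit and 2 control windows, which is also too few to pass. The KLF core, CACACCC or CACGCCC on either strand, was in 28 summit windows and 32 control windows of 447 (exact McNemar test, p = 0.689). It was in 7.31% of all members, 159 of 2176, and in 6.90% of all 58316 windows of the same length in eligible coding sequence. The Sp-type GGGCGG, which can overlap it, was in 15.4% of members and 12.4% of those windows. The homeodomain core TAATTA was in 2.48% and 1.00%, and the BEAF-32 element CGATA in 22.4% of each. The other motifs searched on both strands were GAGAG for GAGA factor, TATCGATA for Dref, GGTCACACT for M1BP, AGNNGGCG for CTCF, CAGGTG as an E-box, CAGGTAG for Zelda, GCCAT for Pho, CACACACA as the CA repeat, CAGCAGCAG as the CAG repeat, GAGGAGGAG as the GAG repeat and GGNGGNGGN as the GGN repeat. Of 2080 possible 6-mers, each counted together with its reverse complement, 0 passed (0%), and 96 had an unadjusted p under 0.05, 51 of them more frequent at the summit. The lowest p was that of CCGGTC, in 40 summit and 11 control windows (exact McNemar test, adjusted p = 0.07999).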

How the data were processed

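Peak lists in narrowPeak format were used for 2 biological replicates of 1 group in the build dm6. The authors deposited a candidate list for each replicate, a pooled list and a list that passed IDR, and the lists in dm3 were not used. Per the README texts deposited with the lists, candidates were called from alignments with a control file. Which aligner, peak caller and IDR cut were used is not given in the sources used here. With each candidate the authors deposited a signal value, treated as a score without a stated scale, a q value on the −log10 scale, and the summit's offset. Read counts were not used, so depth is unknown.

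Coding sequence, UTRs and TSSs came from Ensembl release 115 (BDGP6.54, in dm6 coordinates), and sequence from the RefSeq copy of Release 6. Classes were assigned by summit as promoter first, then 5′ UTR, then coding exon, and after these 3′ UTR, exon of a non-coding gene, intron or intergenic. A reproducible peak was overlapped from 1 bp. Densities divide counts by the bases of a class outside promoters. Position along the coding sequence used the longest transcript. Coordinates are 1-based. The 6 tested comparisons were adjusted together, the 15 motifs and the 2080 6-mer pairs each apart, by Benjamini-Hochberg. The paired motif test was tested on simulated data. Python 3.11.15, numpy 2.4.6, pandas 2.3.3 and scipy 1.17.1 were used.

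Members and gene lists were chosen with earlier results of these data known. The named genes are those of the 12 strongest members, the 8 genes with the most members (ties at 4 members by summed signal), the 3 members ranked best in each replicate, the 2 strongest of each list, and reproducible peaks in coding exons. Of 303 list symbols, 1 was not matched.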

Additional observations from a re-analysis of the deposited data

How the results depend on the processing

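Of 87 values recomputed, 67 kept their direction and their side of the threshold or stayed within their interval, and 0 reversed. That count includes a setting that could hardly change anything. Keeping only summits over 500 bp from a reproducible summit left all 2176 members, and 13734 of 13741 weak candidates outside promoters. It also includes the motif count, which was 0 in every setting although some motifs could not pass. The share of weak candidates outside promoters that were in coding exons became 16.8% with promoters of 250 bp, 13.4% with 1000 bp, 13.3% in the stronger 50% of candidates, and 16.9% to 17.5% in single replicate lists. The ratio of coding to intron density became 0.668 in the stronger 50% and 0.9498 to 0.959 in single replicate lists. The share of genes with a member became 16.5%, 14.1%, 6.97% and 23.0% to 23.5% in the same order, since these settings change how many candidates enter. The position difference was -2.24 points with the strongest member of each gene and -1.45 to -1.16 points in replicate lists, and missed the threshold. The GC excess over 50% of pairs, 7.75 points, was 7.58 in the stronger 50%, where fewer pairs remained, and missed it. A single 6-mer passed, giving counts of 1, with promoters of 250 bp and in each replicate list (1 to 1), against 0. The recovery difference was -22.2 points and the signal difference -26.7 with the strongest candidate of each gene, where introns, with more candidates per gene, offer more to choose from. Recovery differed by -8.33 points when a replicate candidate counted only for its nearest pooled summit, an alternative chosen after seeing the data, as was the restriction to 4 arms, which changed no call among the results it was run on.

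No paired analysis was possible because there is only 1 group. Depth is unknown.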

Other observations

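Some gene groups were noticed after the strongest members had been seen, and their lists were written then, so their counts are descriptions. Genes of oxidative phosphorylation and the citric acid cycle, the energy pathways of mitochondria, held 17 members in 14 of 74 genes. That is 18.9% of these genes, against the background of 15.3%. In their 44.8 kb the density was 380 per Mb (exact Poisson 95% interval 221 to 608). At the average density for the same distances from a TSS, 6.14 would have fallen there. Of the 17, 8 were in both replicate lists, where 36.6% of all members were. Among the 108 strongest of the 2176 members, 6 came from this list, ATPsynbeta and Pdhb first. Since the list was written after the strongest members were seen, that count was partly fixed by the choice. Translation initiation and elongation factors held 14 members in 11 of 52 genes (21.15%, against the same background). Their density was 223 per Mb (122 to 375), and 7.95 members would have fallen there at average density. The strongest were in eEF5, with a pooled signal of 31.2, and eEF1delta with 29.9. In both replicate lists were 9 of the 14, against 36.6% of all members.

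Of 6 actin genes, 2 (33.3%, against the background of 15.3%) held 3 members, all in both replicate lists, where 36.6% of all members were. A pair of them was in Act5C, a cytoplasmic actin, within its single coding segment of 1128 bp. The stronger had 34.4 in the pooled list, 12.2 in replicate 1 and 22.8 in replicate 2, and the other had 27.0, 8.87 and 19.8. Whether reads were shared between actin genes was not tested, and these values are uncertain.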
